A study of Homo sapiens with 4 samples.

Results

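The genes described here are those that charge transfer RNAs with amino acids, make non-essential amino acids or carry amino acids across membranes. They were followed in HCT116 and HepG2 cells exposed to MP-HX, the hexane leaf extract of the plant Melicope ptelefolia. HCT116 is an established line from a human colorectal carcinoma and HepG2 one from a human hepatocellular carcinoma. HCT116 cells received 60 µg/mL MP-HX and HepG2 cells 78 µg/mL, both for 24 h, and the control cultures of each line received vehicle, labelled as 0.3% DMSO for HCT116 and as 0.39% for HepG2, with the solvent not named in the second label. The study's methods give a single concentration for all control cells, the one on the HepG2 label, so the HCT116 label and the methods differ. RNA from 3 cultures was pooled on each of the 4 Human Gene 2.0 ST arrays, so each group has 1 array, there is no error within a group, and no value below carries one. Cell line and dose differ together, and their parts in a difference between the lines cannot be told apart.

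Members were taken by gene symbol: the amino acid families of solute carriers (SLC1A, SLC3A, SLC6A, SLC7A, SLC36A, SLC38A and SLC43A), the aminoacyl-tRNA synthetases, and a list of synthesis enzymes headed by ASNS and PHGDH. The rule matched 27 transcript clusters of 25 genes, out of 16098 clusters that name 1 gene and 14884 genes in all. Of 106 RefSeq protein-coding symbols that fit the rule these 25 were analysed here, and they are 17 synthetases, 7 synthesis enzymes and 1 solute carrier, SLC38A12. Transport therefore rests on 1 of 60 symbols, and the label holds for charging and synthesis only. None of the 17 mitochondrial synthetases whose symbols end in 2 was analysed, nor were FARSA, FARSB, MTHFD2 and ALDH18A1.

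An aminoacyl-tRNA synthetase joins an amino acid to its matching tRNA at the cost of ATP, which is the step at which the genetic code is read into amino acids. When an amino acid runs short, uncharged tRNA activates the kinase GCN2 (EIF2AK4), which phosphorylates eIF2 alpha and favours translation of the transcription factor ATF4. The kinase PERK (EIF2AK3) reaches the same factor from the endoplasmic reticulum. ATF4 pairs with C/EBP proteins on composite DNA elements and is known to drive ASNS, serine and proline synthesis genes and many cytosolic synthetases.

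Values are log2 signals, and a response is the value on the MP-HX array less the value on the vehicle array of that line. All 25 genes lay above the median of their array on all 4 arrays, the closest by 1.98 log2 units, with array medians between 3.97 and 4.33. Of 11 hepatocyte markers, 9 were analysed, and their median on the treated and control arrays was 11.34 and 11.69 in HepG2 against 3.57 and 3.59 in HCT116. All 9 lay above the array median on both HepG2 arrays, and 2 did on both HCT116 arrays. Colon epithelial markers (7 of 10 analysed) had medians of 5.69 and 5.68 in HCT116 and of 4.72 and 4.97 in HepG2. Above the array median were 6 of the 7 on both HCT116 arrays, and 7 (MP-HX) and 6 (control) in HepG2. The 1 blood cell marker analysed was at 3.14 and 3.05 in HCT116, below the array medians, and at 4.49 and 4.60 in HepG2, above them, and the 2 of fibroblasts and endothelium lay below the median on every array. A lower level per cell and a smaller share of cells holding the transcript cannot be told apart in RNA of whole cultures.

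Most members had a higher signal with MP-HX than with vehicle, 19 of 25 in HCT116 and 21 in HepG2. SARS1 was at least 2-fold higher in both lines, and ASNS and MARS1 passed that mark in HepG2. At 1.5-fold, 12 genes were higher in HepG2 and 5 in HCT116, and those 5 (AARS1, ASNS, CARS1, SARS1 and WARS1) were among the 12. One gene was lower by 1.5-fold in each line, KARS1 in HCT116 and PSPH in HepG2.

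**Figure D1:**
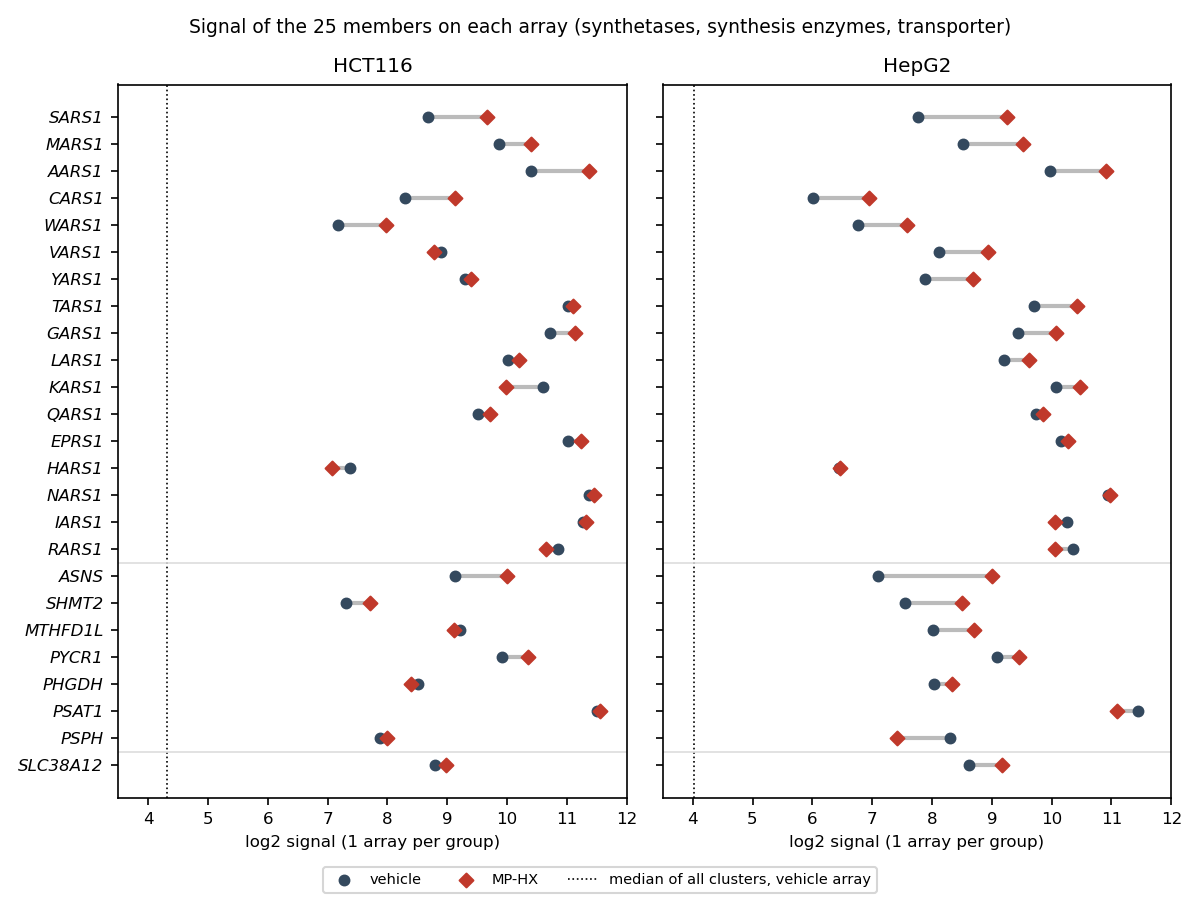
Log2 signal (x axis) of the 25 genes (y axis) in HCT116 (left) and HepG2 (right). Circles are the vehicle array, diamonds the MP-HX array, 1 array each with no error bar, and the dotted line is the median of all clusters on the vehicle array. The grey bars are longest for ASNS and SARS1 in HepG2, where the signals move from 7.10 to 9.0 and from 7.76 to 9.25.

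These counts were read against all 14884 genes, as a description, because the members were chosen with earlier results of these data known. At 2-fold, 1 of 25 members (4%) was higher in HCT116, against 2.43% of all genes, which is close to the background, and 3 of 25 (12%) in HepG2, against 3.18%. No member was 2-fold lower in either line, where 2.99% of all genes were lower in HCT116 and 2.26% in HepG2. Shares that small leave little room for a gene among 25, so the zeros say little of the members.

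At 1.5-fold the distance was wider. In HCT116, 5 members (20%) were higher against 8.38% of all genes, and in HepG2 12 members (48%) against 9.33%. All members are well expressed, and among the 9516 genes above the array median on all 4 arrays the shares were 10.6% in HCT116 and 12.2% in HepG2, with 4.27% at 2-fold in HepG2. The 1 member (4%) lower at 1.5-fold compares with 8.75% of all genes in HCT116 and 7.97% in HepG2. Counting both lines together, 5 members were at least 1.5-fold higher in each, against 3.27% of all genes and 4.70% of the well expressed ones, while the 1 gene at 2-fold in both (SARS1) compares with 0.927%. By direction alone, 19 of 25 members (76%) were above vehicle in HCT116 and 21 (84%) in HepG2, where 49.6% and 47.0% of all genes were.

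Median responses of all 25 genes were 0.18 in HCT116 and 0.55 in HepG2, and those of all genes were 0.00 in both lines. Members ranged from -0.62 to 1.00 in HCT116 and from -0.88 to 1.90 in HepG2, so members lay on both sides of their vehicle value.

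Seryl-tRNA synthetase, SARS1, was the member with the highest response in HCT116. Its signals were 9.67 (MP-HX) and 8.67 (control) in HCT116, then 9.25 and 7.76 in HepG2. Both MP-HX arrays lay above both vehicle arrays. The responses were 1.00 and 1.49, or 2.00-fold and 2.81-fold. Because the table holds 2 decimals, a difference is known to within 0.01, and SARS1 in HCT116 sits on the 2-fold mark itself. With 64 added to the linear signal its HCT116 response was 0.90, short of 2-fold.

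Alanyl-tRNA synthetase, AARS1, responded alike in the 2 lines. It was at 11.36 (MP-HX) and 10.40 (control) in HCT116, then 10.91 and 9.97 in HepG2, responses of 0.96 and 0.94 (1.95-fold and 1.92-fold). These stop just short of 2-fold, and here too both treated arrays were above both controls. Cysteinyl-tRNA synthetase, CARS1, had signals of 9.13 and 8.29 in HCT116 and of 6.94 and 6.01 in HepG2. Its responses, 0.84 and 0.93, were similar although HepG2 started from a far lower level, so that the treated HepG2 array stayed below the untreated HCT116 array. Tryptophanyl-tRNA synthetase, WARS1, an enzyme also known as interferon-inducible, was at 7.97 and 7.18 in HCT116 and at 7.58 and 6.76 in HepG2, responses of 0.79 and 0.82. A dimmer WARS1 cluster gave 0.35 and 0.68, which in HCT116 falls short of 1.5-fold.

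Methionyl-tRNA synthetase, MARS1, which also charges the initiator tRNA, was at 10.40 (MP-HX) and 9.87 (control) in HCT116, then 9.52 and 8.51 in HepG2. The responses were 0.53 and 1.01 (1.44-fold and 2.01-fold), so HepG2 only just reached 2-fold. It did not after quantile normalization (0.96) or with 64 added to the linear signal (0.90). Glycyl-tRNA synthetase, GARS1, whose gene serves both cytosol and mitochondria, was at 11.14 and 10.72 in HCT116 and at 10.07 and 9.44 in HepG2, responses of 0.42 and 0.63.

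A further 3 synthetases were higher in HepG2 with little difference in HCT116. Threonyl-tRNA synthetase, TARS1, went from 9.70 with vehicle to 10.42 with MP-HX in HepG2 (0.72) and from 11.01 to 11.10 in HCT116 (0.09). Tyrosyl-tRNA synthetase, YARS1, went from 7.89 to 8.69 in HepG2 (0.80) and from 9.29 to 9.39 in HCT116 (0.10). Valyl-tRNA synthetase, VARS1, went from 8.12 to 8.93 in HepG2 (0.81) and from 8.89 to 8.78 in HCT116 (-0.11), and its other cluster gave 0.62 and -0.04 in the same order. In all 3 genes the HepG2 vehicle array held the lowest of the 4 signals.

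Lysyl-tRNA synthetase, KARS1, another gene that serves cytosol and mitochondria, was the only synthetase lower by 1.5-fold in either line. Its signals were 9.98 (MP-HX) and 10.60 (control) in HCT116, then 10.47 and 10.08 in HepG2, responses of -0.62 and 0.39. The lines thus went in opposite directions.

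Small responses completed the family. Leucyl-tRNA synthetase (LARS1) was at 10.19 and 10.01 in HCT116 and 9.62 and 9.20 in HepG2, giving 0.18 and 0.42. Glutaminyl-tRNA synthetase (QARS1) was at 9.71 and 9.51, then 9.85 and 9.73, giving 0.20 and 0.12. The bifunctional glutamyl-prolyl-tRNA synthetase (EPRS1) was at 11.24 and 11.01, then 10.27 and 10.16, giving 0.23 and 0.11. None of these 3 reached 1.5-fold in either line. Asparaginyl-tRNA synthetase (NARS1), which uses the product of ASNS, was at 11.46 and 11.37, then 10.98 and 10.95, giving 0.09 and 0.03. Histidyl-tRNA synthetase (HARS1) was at 7.08 and 7.38, then 6.47 and 6.44, giving -0.30 and 0.03. Isoleucyl-tRNA synthetase (IARS1) was at 11.32 and 11.27, then 10.05 and 10.25, giving 0.05 and -0.20. These lie within the robust SD of 0.37 that all genes showed around 0 in each line. Arginyl-tRNA synthetase (RARS1), at 10.65 and 10.85 in HCT116 and 10.05 and 10.36 in HepG2, was the 1 member of 25 below vehicle in both lines (-0.20 and -0.31).

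Several synthetases are held together in the cytosolic multisynthetase complex, of which EPRS1, IARS1, KARS1, LARS1, MARS1, QARS1 and RARS1 were analysed. In HepG2, 1 of these 7 (MARS1) was at least 1.5-fold higher, against 8 of the 10 synthetases outside the complex and 9.33% of all genes. The exceptions outside it were HARS1 and NARS1. Median responses in HepG2 were 0.12 inside and 0.80 outside the complex, and in HCT116 0.18 and 0.26, where 0 of 7 and 4 of 10 genes reached 1.5-fold against 8.38% of all genes. With 7 genes, 0 or 1 is near these background shares, and the difference between the sets was not tested. Sorting the same 17 genes by the class of their catalytic domain, with EPRS1 counted by its class I glutamyl domain although its prolyl domain is of class II, gave medians that lay closer: the 10 class I enzymes had medians of 0.19 in HCT116 and 0.61 in HepG2, and the 7 class II enzymes 0.09 and 0.63.

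**Figure D2:**
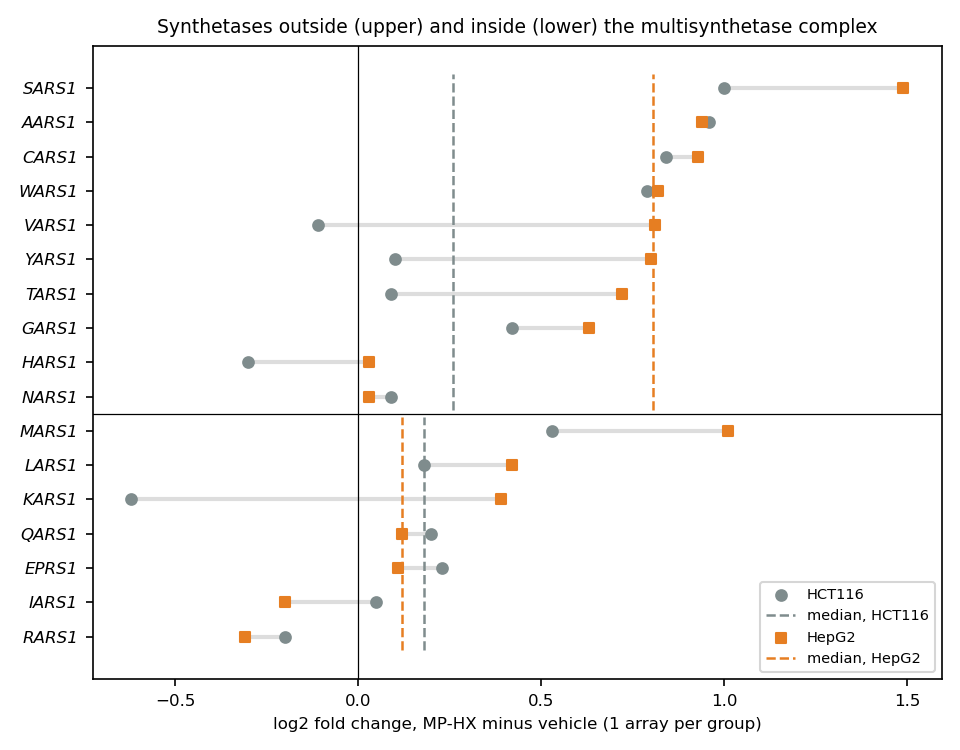
Response in log2 units (x axis, MP-HX minus vehicle, 1 array per group) of the 17 synthetases, with the 10 outside the multisynthetase complex above the line and the 7 inside it below. Circles are HCT116, squares HepG2 and dashed lines the medians of each set, which for HepG2 lie at 0.80 outside and 0.12 inside.

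Asparagine synthetase, ASNS, makes asparagine from aspartate with glutamine as nitrogen donor, and is a textbook target of the amino acid response. Its signals were 10.00 (MP-HX) and 9.13 (control) in HCT116, then 9.0 and 7.10 in HepG2. The responses of 0.87 (1.83-fold) and 1.90 (3.73-fold) include the largest one of any member in either line. In HepG2 the vehicle array was far below the other 3, and the treated HepG2 array came close to the untreated HCT116 array without reaching it.

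The serine synthesis genes had lower responses than ASNS in both lines. PHGDH, which opens the pathway from glycolysis, was at 8.39 and 8.51 in HCT116 and at 8.33 and 8.03 in HepG2, responses of -0.12 and 0.30. PSAT1, the transaminase that follows it, was at 11.56 and 11.51, then 11.10 and 11.45, responses of 0.05 and -0.35. PSPH, the phosphatase that releases serine, was at 7.99 and 7.88 in HCT116 and at 7.42 and 8.30 in HepG2, responses of 0.11 and -0.88. Of the 3 enzymes none was 1.5-fold higher in either line, against 8.38% of all genes in HCT116 and 9.33% in HepG2. With 3 genes, none is near these background shares. PSPH in HepG2 was the lowest response of all members there. PSPH has a near-identical pseudogene copy, PSPHP1, so its signal may hold more than 1 transcript.

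The mitochondrial one-carbon enzymes differed from the serine enzymes in HepG2. SHMT2, which splits serine into glycine and a one-carbon unit, was at 7.70 and 7.31 in HCT116 and at 8.50 and 7.55 in HepG2, responses of 0.39 and 0.95. MTHFD1L, which releases the unit as formate, was at 9.11 and 9.22, then 8.71 and 8.01, responses of -0.11 and 0.70. Over these 5 serine and one-carbon genes the medians were 0.05 and 0.30. PYCR1, the mitochondrial reductase that completes proline, was at 10.35 and 9.92 in HCT116 and at 9.45 and 9.08 in HepG2, responses of 0.43 and 0.37, alike in both lines and short of 1.5-fold.

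SLC38A12, the single solute carrier, was at 8.98 and 8.80 in HCT116 and at 9.17 and 8.62 in HepG2, responses of 0.18 and 0.55. Neither reached 1.5-fold. Nothing more can be said of amino acid transport here. An antisense transcript of a transporter gene, SLC7A11-AS1, falls outside the rule; it was at 3.76 and 3.54 in HCT116 and at 3.49 and 2.3 in HepG2, below the median of every array.

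Over all genes the median difference between the lines was 0.0, and responses in HepG2 were higher than in HCT116 for 16 of 25 members. They were at least 1.5-fold further up in HepG2 for 6 (ASNS, KARS1, MTHFD1L, TARS1, VARS1 and YARS1), or 24%, against 11.2% of all genes, and further up in HCT116 for 1 (PSPH), against 10.3%. Both lines had a response above 0 for 16 genes and opposite signs for 8. The shares of all genes with these signs were not counted, so the 2 counts only describe the members. Across genes, which are not independent replicates and share their arrays, the responses of the 2 lines had a Pearson correlation of 0.62 over the 25 members and of 0.436 over all 14884 genes, given as a description. The plot of both responses places the 5 genes shared at 1.5-fold in the upper right.

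**Figure D3:**
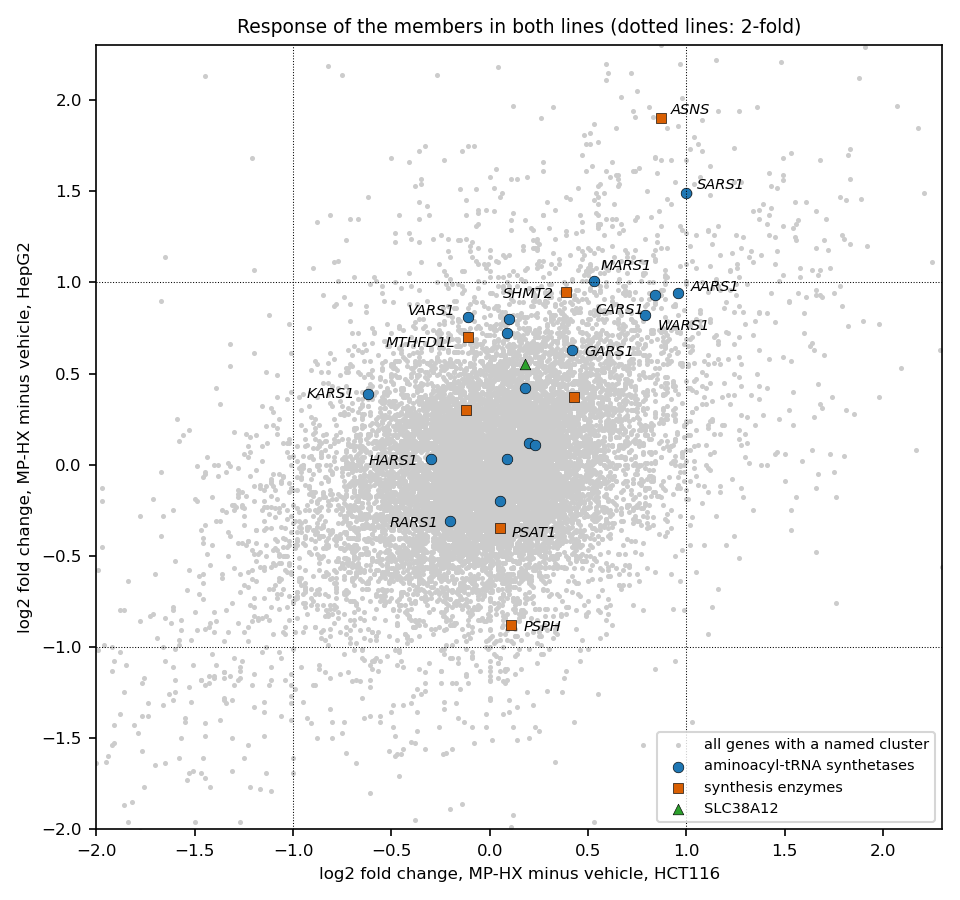
Response in HCT116 (x axis) against response in HepG2 (y axis), both in log2 units, with every gene in grey and members coloured by role. Dotted lines mark 2-fold, and genes beyond the axes are not shown. SARS1 sits on the HCT116 line at 1.00, ASNS is highest at 1.90 in HepG2, and KARS1 and PSPH lie apart from the rest.

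With vehicle, most members had lower signals in HepG2 than in HCT116: 22 of 25 were lower, 8 of them (32%) by at least 2-fold against 19.3% of all genes, and none was 2-fold higher, against 5.76%. After quantile normalization 5 were 2-fold lower. The 8 were CARS1 (-2.28 log2 units, HepG2 minus HCT116), ASNS (-2.03), YARS1 (-1.40), MARS1 (-1.36), TARS1 (-1.31), GARS1 (-1.28), MTHFD1L (-1.21) and IARS1 (-1.02). The median over members was -0.81, and that over all genes was already -0.42, against which the members are to be read. Shares of all genes lower by any amount were not counted, with vehicle or with MP-HX. With MP-HX, 20 of 25 were lower in HepG2, and 4 (16%) by at least 2-fold, against 17.2% of all genes: CARS1 (-2.19), IARS1 (-1.27), GARS1 (-1.07) and ASNS (-1.0). The gap for ASNS thus narrowed by 1.03 log2 units, the difference between its responses, while for CARS1 it was nearly the same with and without treatment. A vehicle array enters both this gap and the response, so low vehicle signals and high responses in HepG2 are not independent observations.

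As ASNS carries a known amino acid response element, the 300 bases around each annotated start (250 before and 50 after, from RefSeq on GRCh38.p14) were searched on both strands for TGATGNAA, the core of composite sites for C/EBP and ATF proteins. Windows were found for 19 of 25 members. The motif was present in 9 of the 19 (47.4%), against 4.46% of 27305 genes, and in 11 of 28 windows (39.3%), against 3.62% of 35116. That background holds all genes with a window, whether or not expressed here, and the share over well expressed genes was not counted. No window was at hand for YARS1, LARS1, VARS1, SHMT2, PYCR1 and PSPH. The 9 stretches with the motif are shown because ASNS, AARS1 and CARS1, 3 of the 5 genes at least 1.5-fold higher in both lines, are among them. Capitals mark the motif, which reads TTNCATCA where it lies on the other strand, and each sequence runs 5′ to 3′ along the strand of its gene.
ASNS, chr7:97872409-97872528, minus strand: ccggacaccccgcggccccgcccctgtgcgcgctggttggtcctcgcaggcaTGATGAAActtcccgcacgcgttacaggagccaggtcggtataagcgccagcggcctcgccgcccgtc
AARS1, chr16:70289675-70289704, minus strand: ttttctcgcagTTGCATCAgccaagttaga
CARS1, chr11:3057407-3057436, minus strand: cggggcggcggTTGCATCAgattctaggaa
MARS1, chr12:57488053-57488082, plus strand: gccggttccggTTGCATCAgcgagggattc
TARS1, chr5:33440956-33440985, plus strand: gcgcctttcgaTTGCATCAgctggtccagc
GARS1, chr7:30594834-30594863, plus strand: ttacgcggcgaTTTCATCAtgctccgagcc
MTHFD1L, chr6:150866346-150866375, plus strand: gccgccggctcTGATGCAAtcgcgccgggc
IARS1, chr9:92293692-92293721, minus strand: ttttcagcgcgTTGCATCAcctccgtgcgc
NARS1, chr18:57621804-57621833, minus strand: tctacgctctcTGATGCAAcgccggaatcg

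In 7 of the 9 genes the variable base gave TGATGCAA or its reverse TTGCATCA, and in ASNS and GARS1 it gave TGATGAAA or TTTCATCA. Counting from the annotated start, the ASNS site covered bases -68 to -61, that of AARS1 began at -187 and that of MTHFD1L at -129. In CARS1 (-2 to 6) and MARS1 (-4 to 4) it spanned the start. In IARS1 (-13 to -6) it lay just before the start, and in TARS1 (3 to 10) and NARS1 (15 to 22) after it. The 9 genes with the motif had median responses of 0.42 in HCT116 and 0.72 in HepG2, and the 10 with a window but no motif 0.12 and 0.21. At least 1.5-fold higher in HCT116 and HepG2 were 3 and 7 of the 9, and 2 and 2 of the 10, against 8.38% and 9.33% of all genes. The 2 of the 10 were SARS1 and WARS1 in both lines. These counts are small, and their distance from those shares was not tested. IARS1 and NARS1 hold the motif at responses between -0.20 and 0.09. SARS1 (1.00 in HCT116 and 1.49 in HepG2) and WARS1 (0.79 and 0.82) have no match in their windows. Whether the motif bears on the responses was not tested.

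SARS1, the 1 member at 2-fold in both lines, has no match in its window, which says only that these letters are absent there. Its upstream 250 bases are shown for that contrast, with 65.2% G and C.
SARS1, chr1:109213643-109213892, plus strand: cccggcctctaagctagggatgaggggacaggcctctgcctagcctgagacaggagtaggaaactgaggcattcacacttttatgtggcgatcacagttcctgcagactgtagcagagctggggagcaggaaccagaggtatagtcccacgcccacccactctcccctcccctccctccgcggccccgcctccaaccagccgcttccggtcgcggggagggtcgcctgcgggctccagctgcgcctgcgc

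A second motif, TGACNNNGC, the core of the antioxidant response element, was searched in the same way and shares no fixed stretch of bases with the first beyond TGA. It was in 4 of 19 members (21.1%: GARS1, KARS1, TARS1 and WARS1) against 16.1% of all genes, which is near the background. A match is a string of letters and no measure of binding, which was not analysed here.

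**Figure D4:**
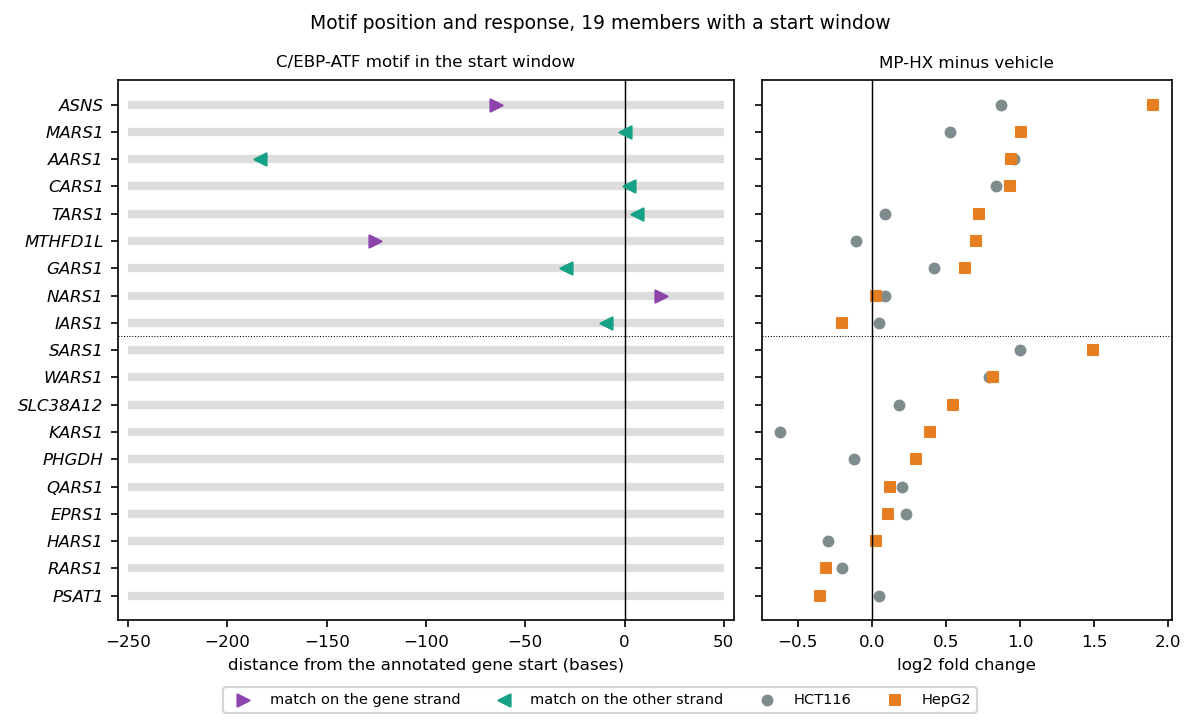
Left, position of the C/EBP-ATF motif (triangles, pointing right on the strand of the gene and left on the other) in bases from the annotated start for the 19 members with a window; right, log2 response of the same genes in HCT116 (circles) and HepG2 (squares), 1 array per group. The 9 genes above the dotted line hold the motif, and 7 of them were at least 1.5-fold higher in HepG2.

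Regulators of the amino acid response, kept as a separate list (13 of 17 analysed), had higher median responses than the members. ATF4 itself was at 11.05 (MP-HX) and 10.17 (control) in HCT116, then 10.46 and 9.91 in HepG2, responses of 0.88 and 0.55. At least 2-fold higher in both lines were 5 of the 13 (38.5%, against 0.927% of all genes), ATF3, DDIT3 (CHOP), DDIT4, TRIB3 and SESN2, the last by 2.45 and 2.51. The list was chosen with earlier results of these data known, so this share is a description and no test of the list. Of the 4 eIF2 alpha kinases, EIF2AK3 had responses of 1.64 and 0.67, EIF2AK4 of -0.14 and -0.34, EIF2AK1 of -0.42 and -0.13 and EIF2AK2 of -0.10 and -0.04. The medians of the list were 0.88 in HCT116 and 0.67 in HepG2, an order of medians that was the reverse of that among the members. Gene by gene, the median difference in response (HepG2 minus HCT116) was only -0.1. At least 1.5-fold further up in HepG2 were 2 of the 13 (ATF3 and ATF5), against 11.2% of all genes. Further up in HCT116 were 4 (DDIT3, DDIT4, EIF2AK3 and NFE2L2), against 10.3%. The order of the lines was not tested.

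Other enzymes of amino acid metabolism, 18 of 40 analysed, did not share the pattern, with medians of 0.02 and -0.02. CTH, the cystathionine gamma-lyase that yields cysteine, was the 1 enzyme of the list at least 2-fold higher, at 7.07 and 6.77 in HCT116 and at 9.17 and 6.57 in HepG2 (0.30 and 2.60). SHMT1, the cytosolic counterpart of SHMT2, was the 1 enzyme at least 2-fold lower, at 6.26 and 7.60 in HCT116 and at 6.13 and 6.93 in HepG2 (-1.34 and -0.80). The mitochondrial and the cytosolic enzyme were therefore on opposite sides of vehicle in both lines. CTH in HepG2 and SHMT1 in HCT116 were each 1 of 18 (5.56%). Of all genes, 3.18% were 2-fold higher in HepG2 and 2.99% were 2-fold lower in HCT116. Each count is thus near the background.

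A test across genes was possible only by treating the 2 lines as 2 pairs, in an additive limma model that holds line as a term. It leaves 1 residual degree of freedom, the disagreement between lines given different doses. The limma fit then draws each cluster's error towards a variance pooled over all clusters, which gave 4 degrees of freedom in total. The SE and p-values below therefore rest on both. Of 25 members 0 passed an adjusted p of 0.05, as did 0% of 16098 clusters. At an unadjusted p under 0.05, 8 members were higher and 0 lower, against 6.81% and 5.86% of all clusters. The 8 were SARS1, AARS1, CARS1, WARS1, ASNS, MARS1, SHMT2 and GARS1. SARS1 had the lowest p, with a mean response of 1.25 ± 0.21 (SE, limma, adjusted p = 0.225), followed by AARS1 at 0.95 ± 0.17 (limma adjusted p = 0.248). ASNS, with a larger mean of 1.38, had a larger SE of 0.31 because the lines differed (limma adjusted p = 0.268). No difference between MP-HX and vehicle in any single member was thus established by this fit, and the responses above are differences between single arrays of pooled RNA.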

How the data were processed

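RNA of 3 cultures per group was pooled and hybridised to 1 Human Gene 2.0 ST array. The authors deposited log2 signal per transcript cluster (48226 clusters, 2 decimals). Named in the submitters' processing notes are GCOS, Transcriptome Analysis Console and Affymetrix Expression Console. How the signals were normalized was not stated in the sources used. Values were used as deposited. Gene symbols came from the platform's annotation table, which named 1 gene for 16098 clusters and none for 32128. Where a gene had several clusters the brightest was used. The members and lists were chosen with earlier results of these data known. Responses were MP-HX minus vehicle within a line, read at the 2-fold threshold of the study's methods and at 1.5-fold. Named with all 4 values were every synthetase and synthesis enzyme and each member 2-fold from vehicle, and of other enzymes those 2-fold from vehicle. The across-line fit used limma 3.58.1 in R 4.3.3 with Benjamini-Hochberg adjustment over all named clusters, and was tested on simulated data, as was the motif search. The number of arrays limits the precision. Alternatives were quantile normalization, 64 added to the linear signal, centring, thresholds of 1.5-fold and 3-fold, a filter on dim clusters, the mean of a gene's clusters, an intensity trend in limma and, added later, another cluster or start window.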

Additional observations from a re-analysis of the deposited data

Results flagged for a closer look

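In 4 genes the single pair of arrays of one line went up with MP-HX and that of the other went down, with responses at least 1.5-fold apart. With 1 array per group these differences were not tested. KARS1 (lysyl-tRNA synthetase) was higher in HepG2 and lower in HCT116, a difference in response of 1.01 log2 units (HepG2 minus HCT116). VARS1 (valyl-tRNA synthetase) differed in the same direction by 0.92, and MTHFD1L, the mitochondrial enzyme that releases formate, by 0.81. PSPH, the phosphatase that completes serine synthesis, went the other way, with a difference of -0.99. In HCT116 the responses of VARS1 (-0.11), MTHFD1L (-0.11) and PSPH (0.11) lay within the robust SD of all genes (0.37). The opposite signs of these genes thus rest on small HCT116 values, while KARS1 was at -0.62 and 0.39. The share of all genes with such opposite responses was not counted.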

How the results depend on the processing

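Counts at 2-fold depended on the scale. After quantile normalization 2 members instead of 1 were 2-fold from vehicle in HCT116 (AARS1 joined, at 1.03), 2 instead of 3 in HepG2 (MARS1 left, at 0.96), and 5 instead of 8 differed between the vehicle arrays. With 64 added to the linear signal 0 members passed in HCT116 (SARS1 at 0.90), 2 in HepG2 (MARS1 at 0.90) and 0 in both lines, and 3 instead of 5 were 1.5-fold higher in both. A 1.5-fold threshold gave 6 members in HCT116, 13 in HepG2 and 5 in both lines. A 3-fold threshold gave 0, 1 and 0. Among single responses, adding 64 lowered that of ASNS in HepG2 to 1.52 and that of CARS1 to 0.54, and the other cluster of WARS1 gave 0.35 in HCT116. Over the alternatives run for them the synthetase median ranged from 0.16 to 0.18 in HCT116 and from 0.54 to 0.63 in HepG2, and that of synthesis enzymes from 0.09 to 0.14 and from 0.33 to 0.37. No response of 2-fold or more changed sign. In the limma fit 0 members passed under each setting, while over all clusters quantile normalization raised the calls from 0 to 233 (SARS1 at an adjusted p of 0.0504). The cause was not tested. Leaving out ALDH18A1 was not run, since it was not analysed. No replicate could be left out with 1 array per group, and no paired analysis by replicate number was possible because the labels give none. Depth is not defined for arrays, and all members lay above the array medians.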
